A study of Homo sapiens with 8 samples.

Results

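EGR1, NAB2, JUNB, ETV4 and CEBPB are genes of transcription regulators that growth factors and the ERK kinase cascade act on, and they were taken by gene symbol from a deposited table of 187 genes, where all 5 have a row. They were chosen by their lower counts after serum deprivation in this same table, so their differences between the groups are given as a description. Test calls for them appear only to set them beside the rest of the table, and support nothing. Polyadenylated RNA was sequenced from NCI-H295R, an established human adrenocortical carcinoma line that makes adrenal steroids. The 4 control libraries came from untreated cells in complete medium, a DMEM-F12 base with NU-I serum, antibiotics and the ITS supplement of insulin, transferrin and selenium. The 4 serum-deprived libraries came from cells in the same base without NU-I serum and without ITS, so a loss of serum and a loss of insulin cannot be told apart, and the sources used here do not state how long it lasted. The labels do not state whether replicates are separate cultures, so their spread may be technical, and all of them come from a single cell line.

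The authors had already selected the 187 genes as changed, and their estimated counts add up to 262373 to 359195 in a library, a part of the sequencing depth, which is unknown. Values below are scaled counts, which are estimated counts divided by a size factor for each library. Of 15 adrenocortical marker genes, HSD3B2, MRAP, INHA and DLK1 were in the table, which places no limit on the others, since genes outside it were not analysed here. None of the 6 fibroblast, 4 endothelial and 3 leukocyte markers on short lists was tabulated, although genes known from leukocytes but on no list, such as IL7R and CD22, were. In each group replicate 1 was unlike the rest over these genes, with a chi-square per degree of freedom of 46.4 to 63.7 against replicates 2 to 4, which had 4.27 to 19.3 among themselves. The genes were selected on these same libraries, so how far the selection itself sets replicate 1 apart cannot be told. The main values of the members that replicate 1 moves are given with and without it.

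Growth factors and insulin activate receptor tyrosine kinases, which signal through RAS and RAF to the kinases MEK and ERK. ERK phosphorylates ternary complex factors that sit with the serum response factor SRF on CArG boxes in front of immediate early genes, and these genes are then transcribed within minutes, without new protein synthesis. EGR1, a zinc finger transcription factor, and JUNB, a subunit of the AP-1 dimer, are such genes. NAB2 is a co-repressor that binds EGR1 and lowers its activity, and its own gene is a target of EGR1, which closes a negative feedback loop. ETV4 is an ETS factor of the PEA3 group whose expression follows ERK activity in many tissues, and CEBPB encodes C/EBPβ, a leucine zipper factor that ERK phosphorylates.

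Promoter sequence is shown for EGR1, the inducer of the pair, because matches to the CArG box can be read there. Sequence further upstream was not searched, and no element was tested for a response to serum. The 250 bases before the RefSeq start of EGR1 (RefSeq, GRCh38.p14, chr5:138465229-138465478, plus strand) are printed 5′ to 3′, with matches to the searched motifs in capitals.
EGR1: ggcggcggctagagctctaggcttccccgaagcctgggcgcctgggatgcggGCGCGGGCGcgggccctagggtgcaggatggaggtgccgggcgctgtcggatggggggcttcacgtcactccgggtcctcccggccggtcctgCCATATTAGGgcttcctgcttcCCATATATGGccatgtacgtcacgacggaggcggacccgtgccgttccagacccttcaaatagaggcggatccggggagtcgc
The capitals mark, from left to right, a match to the EGR1 site GCGNGGGCG and 2 CArG boxes, which are CC and GG with only A or T between them. The CArG boxes begin 105 and 83 bases before the start. A CArG box on either strand was found in 407 of 35116 RefSeq windows of this length, or 1.16%, and 2 or more in 11 windows.

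The gene of the co-repressor held a match to the EGR1 site 62 bases before its RefSeq start. GENCODE has a NAB2 transcript that starts further upstream, at 57088894, so the match lies downstream of that start. It is shown here with its flanks (chr12:57089046-57089066, plus strand) because it has the letters that the EGR1 protein is known to bind.
NAB2: cgtcctGCGGGGGCGgaggcg
The EGR1 site was found on either strand in 8.41% of the RefSeq windows, and the NAB2 window had no CArG box. The match in NAB2 overlaps 1 of its 4 matches to the GC box GGGCGG, a motif held by 42.6% of windows. Of the other members, JUNB had no match to any searched motif in its window, CEBPB had GC boxes only in the windows before both of its RefSeq starts, and ETV4 had no window in the RefSeq table. The ETS site CCGGAA (14.5% of windows), the AP-1 site TGANTCA (6.57%), the CRE TGACGTCA (1.65%) and the C/EBP site TTGCNNCAA (1.62%) were searched on both strands and matched none of the members' windows. A match describes the letters of these windows and not binding, which was not measured.

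**Figure D1:**
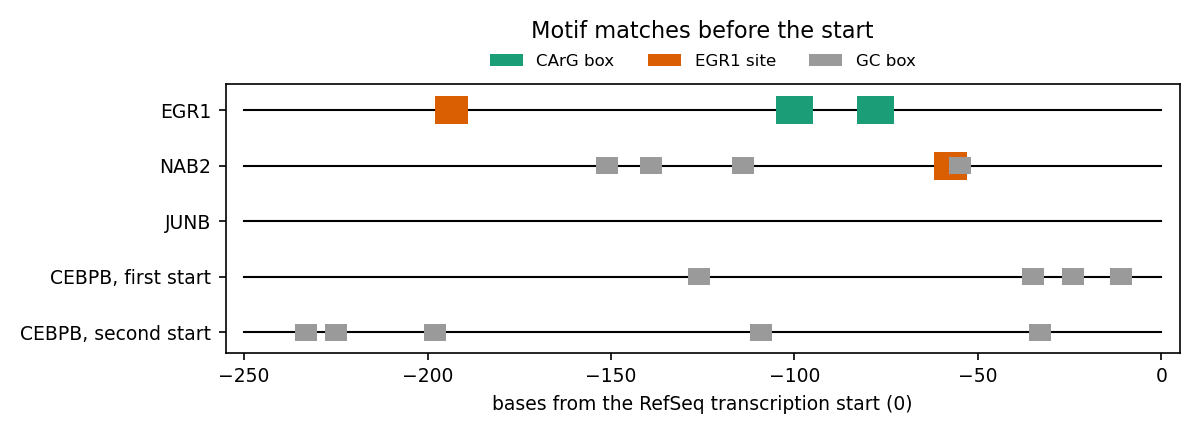
Matches to the searched motifs in the 250 bases before the RefSeq start of EGR1, NAB2, JUNB and both starts of CEBPB. The horizontal axis is the distance from the start in bases and each block is 1 match on either strand. EGR1 holds 2 CArG boxes and an EGR1 site, NAB2 an EGR1 site that overlaps a GC box, CEBPB only GC boxes and JUNB none.

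EGR1 had the largest fold difference of the 5 genes in replicates 2 to 4 and almost none in replicate 1. The gene (ENSG00000120738) lies on chromosome 5 from 138465490 to 138469315 (GRCh38, GENCODE annotation). Its scaled counts were 219.9, 490.5, 347 and 371 in control replicates 1 to 4. After serum deprivation they were 225, 115, 109.7 and 126. Serum-deprived replicates 2 to 4 lay below every control, while serum-deprived replicate 1 was slightly above control replicate 1, so the groups overlapped by that single pair. The log2 fold change was -1.31 ± 0.29 (SE, n = 4 per group), or 2.49-fold lower. Without replicate 1 of both groups it was -1.79 ± 0.16 (SE), or 3.45-fold lower. The authors' deposited table gives -1.74, the fall of rank 3 among the 94 genes it lists as lower. EGR1 took rank 10 over all 8 libraries and rank 3 over replicates 2 to 4. JUNB, ETV4 and CEBPB held ranks 87, 55 and 76 both in the authors' table and over replicates 2 to 4. Over all 8 libraries they held 92, 41 and 72. NAB2 was at 88 in that table, at 89 over replicates 2 to 4 and at 83 over all 8. Without replicate 1 of both groups the log2 fold changes of JUNB, ETV4 and CEBPB were -0.65, -0.83 and -0.73. The authors' table gives -0.60, -0.78 and -0.69, and the fit over all 8 libraries gave -0.54, -0.86 and -0.69. Which libraries the authors' values and their selection of genes rest on was not tested. The order within the replicate 1 pair depends on the scale between the groups, because the unscaled counts of EGR1 were 219 in the control and 191 after deprivation.

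**Figure D2:**
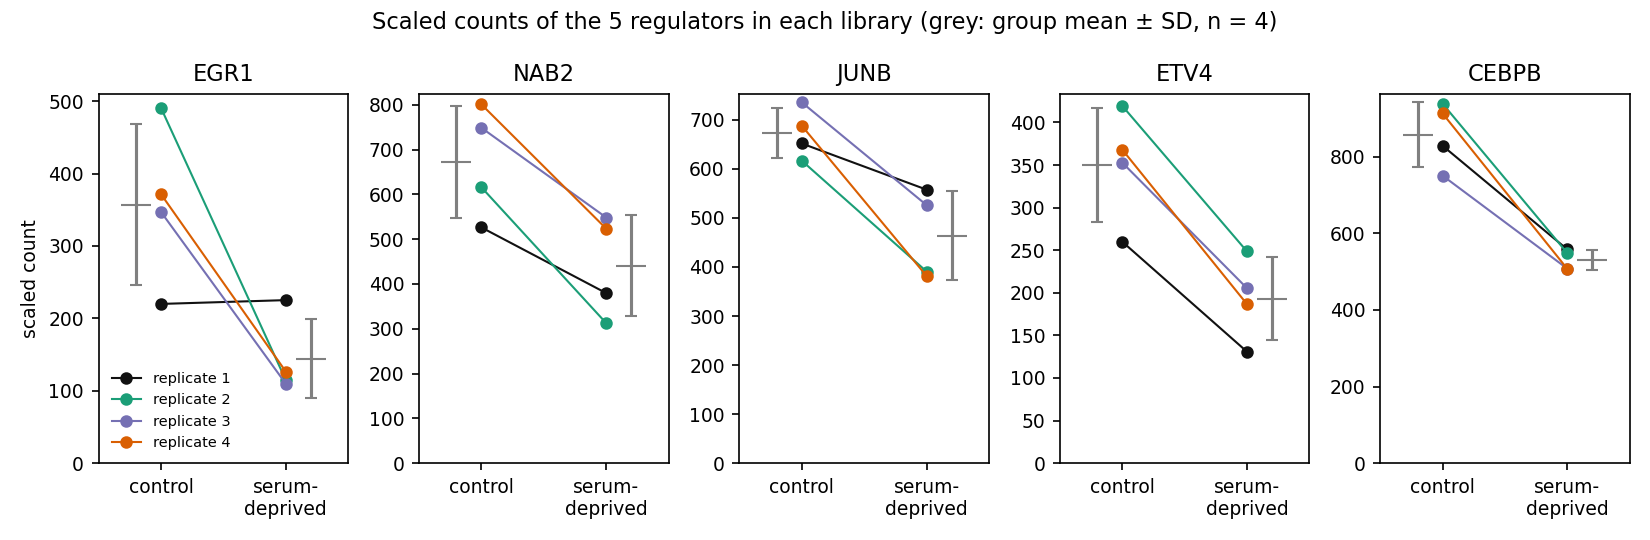
Scaled counts of EGR1, NAB2, JUNB, ETV4 and CEBPB in control and serum-deprived libraries. Each line joins the libraries that share a replicate number, and grey bars give the group mean ± SD (n = 4). All lines fall except that of EGR1 in replicate 1, which runs from 219.9 to 225.

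NAB2 was lower in all 4 pairs, by a smaller factor than EGR1 in pairs 2 to 4. The gene (ENSG00000166886) lies on chromosome 12 from 57088894 to 57095476. Scaled counts of NAB2 were 526, 616, 749 and 801 in control replicates 1 to 4. After deprivation they were 379.6, 313, 548 and 523. Replicates 3 and 4 were the higher libraries of both groups, and serum-deprived replicate 3 exceeded control replicate 1, so the groups overlapped. The mean went from 673 ± 125 to 441 ± 113 (SD, n = 4 each), a log2 fold change of -0.61 ± 0.21 (SE). In the authors' deposited table NAB2 has a log2 fold change of -0.60 and an FDR of 0.0587.

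The inducer and its co-repressor were compared through the ratio of NAB2 to EGR1 counts within each library, which no size factor enters. There were 2.39, 1.26, 2.16 and 2.15 NAB2 counts for each EGR1 count in control replicates 1 to 4. In the serum-deprived libraries the ratio was 1.68, 2.72, 4.98 and 4.13. The ratio was higher after deprivation in pairs 2, 3 and 4, where it rose 2.17-fold, 2.31-fold and 1.91-fold, and lower in pair 1, where it became 0.705 of the control value. On the log2 scale its mean was 0.95 ± 0.42 in controls and 1.64 ± 0.70 after deprivation (SD, n = 4 each), a difference of 0.69 that is smaller than the SD of 0.80 between the pairs' changes. Without replicate 1 of both groups the difference was 1.09. The groups overlapped on the log2 scale through serum-deprived replicate 1 at 0.75, which lay below control replicates 1, 3 and 4. Serum-deprived replicates 2 to 4, at 1.44 or more, lay above every control, the highest of which was replicate 1 at 1.26. The merged exons of the genes are of similar length, 3.138 kb for EGR1 and 3.01 kb for NAB2.

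**Figure D3:**
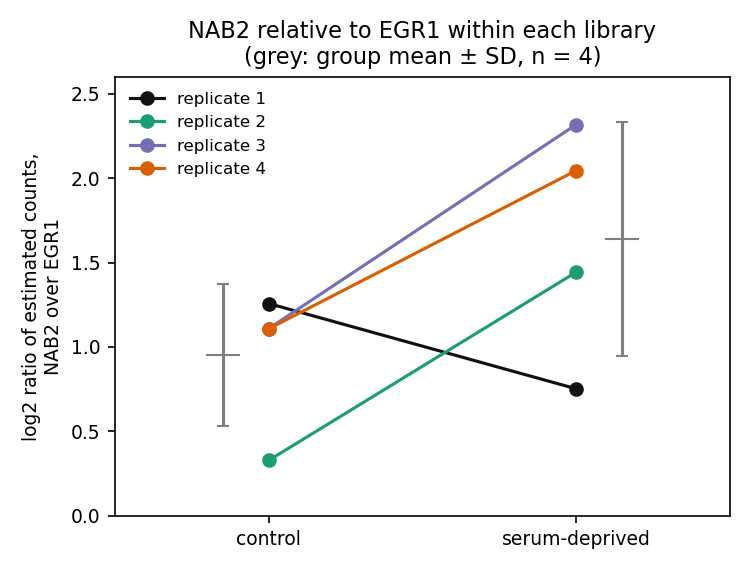
The log2 ratio of NAB2 to EGR1 estimated counts within each library, with lines joining libraries of the same replicate number and grey bars for the group mean ± SD (n = 4). The ratio is higher after serum deprivation in replicates 2, 3 and 4 and lower in replicate 1, and control replicate 2 lies lowest at 0.33.

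JUNB had the smallest fold difference of the 5 genes over the 8 libraries, and its groups did not overlap. The gene (ENSG00000171223) is a single exon on chromosome 19 from 12791496 to 12793315. Its scaled counts were 652, 617, 736 and 688 in control replicates 1 to 4. After deprivation they were 558, 391, 526 and 382. Controls stayed within a narrow range, with the highest 1.19 times the lowest, whereas the serum-deprived libraries split into replicates 1 and 3, which were higher, and replicates 2 and 4. The log2 fold change was -0.54 ± 0.16 (SE, n = 4 per group), or 1.45-fold lower. Without replicate 1 of both groups it was -0.65 ± 0.14 (SE) for JUNB, against -0.64 ± 0.19 for NAB2. The mean log2 ratios of pairs 2 to 4 were -0.66 for JUNB and -0.68 for NAB2, so the order of these genes depended on the measure.

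ETV4 was lower by a similar factor in every pair, although its level differed among replicates. The gene (ENSG00000175832) lies on chromosome 17 from 43527844 to 43579620, on the minus strand. Scaled counts of ETV4 were 260.1, 419.6, 353 and 368 in control replicates 1 to 4. After deprivation they were 131, 249, 205 and 187. Replicate 2 was the highest library and replicate 1 the lowest in both groups, and the highest serum-deprived value, 249, lay just under the lowest control value, 260.1. The fall within a pair was 1.98-fold, 1.69-fold, 1.72-fold and 1.97-fold in pairs 1 to 4. The log2 ratios of the pairs had a mean of -0.87 ± 0.13 (SD, n = 4 pairs), which is the smallest spread of the 5 genes.

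CEBPB had the widest gap of the 5 genes between the lowest control and the highest serum-deprived library. The gene (ENSG00000172216) is a single exon on chromosome 20 from 50190734 to 50192689. Its scaled counts were 828, 938, 750.3 and 913 in control replicates 1 to 4. After deprivation they were 558, 548, 507 and 507. All serum-deprived libraries lay within 1.10 times of each other, well below the lowest control. The mean went from 857 ± 85.4 to 530.0 ± 26.6 (SD, n = 4 each), so that 61.8% of the control level remained, and the log2 fold change was -0.69 ± 0.12 (SE). Its counts were whole numbers, within 0.01, in 6 of the 8 libraries.

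CEBPD, the paralog that encodes C/EBPδ and is also induced early by growth factors and cytokines, was the other tabulated gene of the C/EBP and ATF list. It lies on chromosome 8 and had far fewer reads. Its scaled counts were 70.4, 51.2, 55.8 and 50.6 in control replicates 1 to 4, and 38.9, 15.2, 29.7 and 27.2 after deprivation. Every serum-deprived library was below every control, with a log2 fold change of -1.04 ± 0.27 (SE, n = 4 per group), or 2.05-fold lower. Like the members, CEBPD is tabulated because the authors selected it as changed in these libraries. Counts of CEBPD were whole in 6 of the 8 libraries, and the 2 others are control replicates 1 and 2, as for CEBPB.

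The members were all lower in numbered pairs 2, 3 and 4, and EGR1 moved from the largest fall in these pairs to none in pair 1. All 5 were lower after deprivation in each of pairs 2 to 4, where 50.3%, 50.8% and 50.3% of the 187 genes were lower, and 4 of 5 in pair 1, where 56.1% were lower. Their median log2 ratio was -0.47 in pair 1 and -0.77, -0.56 and -0.85 in pairs 2, 3 and 4. EGR1 had the lowest log2 ratio of the 5 in pairs 2, 3 and 4, at -2.09, -1.66 and -1.55. The order of the other genes differed between pairs, and NAB2 had the next lowest ratio in pair 2 but the highest in pairs 3 and 4. In pair 1 ETV4 was lowest at -0.99, then CEBPB, NAB2 and JUNB at -0.57, -0.47 and -0.22, and EGR1 highest at 0.03. Without scaling the EGR1 log2 ratio in pair 1 was -0.20 and all 5 genes were lower in that pair too. Across the table, 44.4% of genes were lower in all 4 pairs, as were 4 of the 5 members, a count that cannot be read as a result because the genes were chosen for being lower. The agreement in pairs 2 to 4 cannot be read as a result either. In the authors' table, by which the genes were selected, EGR1, JUNB, ETV4 and CEBPB held the same ranks as over replicates 2 to 4.

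**Figure D4:**
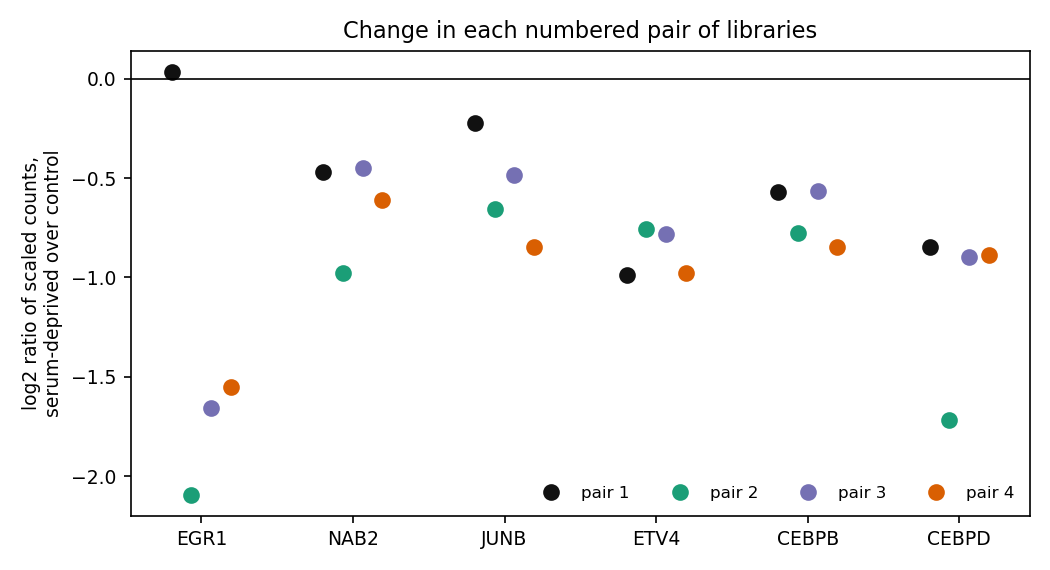
Log2 ratio of scaled counts, serum-deprived over control, in each of the 4 numbered pairs for the 5 regulators and CEBPD. Points under the line at 0 are lower after deprivation. EGR1 spans from 0.03 in pair 1 to -2.09 in pair 2, while ETV4 stays between -0.75 and -0.99.

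Ratios between members showed how far they changed by the same factor, again without any size factor. The 2 groups overlapped for all 10 ratios that the 5 genes allow. The ratio of JUNB to ETV4 was the only one of the 10 that changed in the same direction in all 4 pairs, rising by between 0.10 and 0.76 on the log2 scale. NAB2 against CEBPB changed by 0.06 ± 0.19 and NAB2 against JUNB by -0.07 ± 0.26 (mean ± SD over 4 pairs, log2), both within the spread between pairs. EGR1 against ETV4, CEBPB and JUNB changed by -0.44 ± 1.03, -0.63 ± 0.86 and -0.76 ± 0.75, and each of these was lower in pairs 2 to 4 and higher in pair 1.

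The members differed in how much libraries of a group varied. This is a description, since the authors' limit on FDR favours genes whose spread is small for their fold change. EGR1 had a pooled SD within groups of 0.48 on the log2 scale, larger than that of 40 of the 43 other tabulated genes whose mean count was within 2-fold of its own (median 0.24). ETV4 and NAB2 followed with an SD of 0.34 each, against medians of 0.24 and 0.21 for genes of like count, and JUNB had 0.21. CEBPB had an SD of 0.12, and 4 of the 37 genes of like count had a smaller one. Without replicate 1 the genes of like count had lower SDs too, with medians between 0.12 and 0.13 for the 5 members. EGR1 then had an SD of 0.20, larger than that of 33 of its 43 neighbours by count, and ETV4 had 0.17, larger than 30 of 41. JUNB had 0.20, larger than 24 of 31, and NAB2 had 0.35, larger than 32 of 33. The low spread of CEBPB was not seen without replicate 1, where its SD was 0.13 and 19 of the 37 neighbours had a smaller one.

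**Figure D5:**
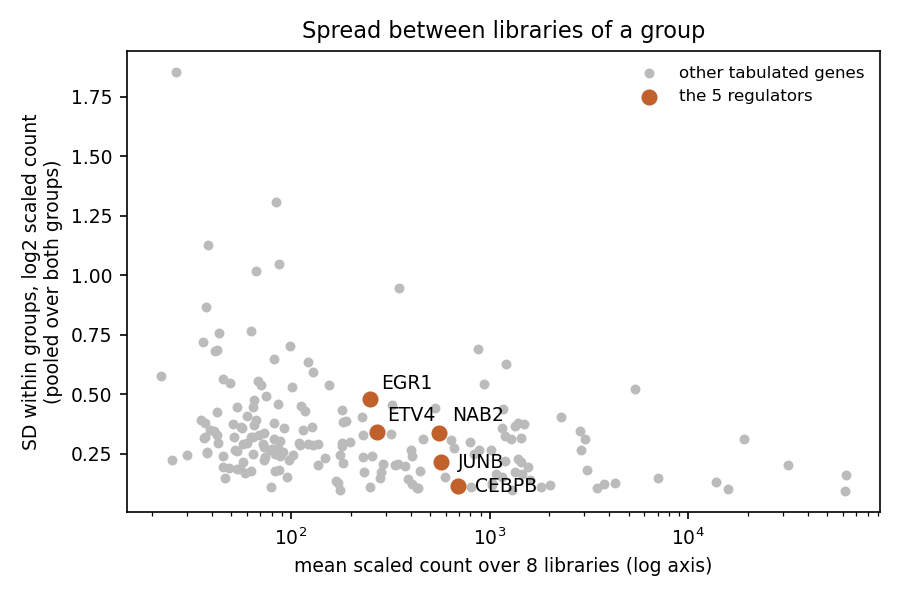
Pooled SD of log2 scaled counts within groups against the mean scaled count (log axis) for the 187 tabulated genes, with the 5 regulators in colour. EGR1 lies at 0.48 and CEBPB at 0.12.

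Levels between genes were compared as scaled counts per kb of merged exons. CEBPB and JUNB were the most abundant, with 438 ± 43.6 and 369.7 ± 28.0 per kb in controls (SD, n = 4 each), followed by NAB2 with 224 ± 41.5, EGR1 with 114 ± 35.4 and ETV4 with 97.1 ± 18.4. After deprivation the levels per kb were 271 ± 13.6 for CEBPB, 255 ± 49.9 for JUNB, 147 ± 37.7 for NAB2, 53.5 ± 13.5 for ETV4 and 45.9 ± 17.4 for EGR1. In controls the ranges of CEBPB and JUNB overlapped and so did those of EGR1 and ETV4, whereas NAB2 stood apart from both neighbours. After deprivation the same neighbours overlapped, so the exchange of EGR1 and ETV4 at the bottom of the order is within the spread. The sources used here do not state which transcripts carried the reads, and a shorter transcript would raise the level per kb.

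Exons of NAB2, JUNB, ETV4 and CEBPB overlap exons of a gene on the opposite strand, with 69 bases shared with STAT6, 259 with HOOK2, 68 with DHX8 and 231 with CEBPB-AS1. EGR1 overlapped no other annotated gene. The library kit keeps strand, but the sources used here do not state whether counting used it. Without strand, reads that lie within these bases match both genes. Counts of NAB2, JUNB and ETV4 were whole numbers, within 0.01, in 8 of the 8 libraries, and those of CEBPB in 6. Whether reads were shared with the partners was not tested. None of the partners was in the table.

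For each member, the 3 genes with the most similar profile over the 8 libraries were found by the root mean square difference of log2 scaled counts centred on each gene's mean. EGR1 had no close neighbour, as TP53INP2 was nearest at 0.34, then PKD1P6, a pseudogene with close copies whose counts are uncertain, and SNED1. The nearest genes to NAB2 were CDC42EP1 and MARCH4, both at 0.14, and HOXC8 at 0.15. ETV4 was closest to the collagen gene COL13A1 (0.12), then to SQOR and IRF9, and JUNB to DLK1 (0.14), LY6E and FLYWCH2. CEBPB was closest to AC087289.1 (0.10), SERPINA5 and DLK1. No member was among the 3 genes nearest to another, and the closest members were JUNB and CEBPB at 0.23, while EGR1 and NAB2 were the farthest apart at 0.61.

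Few other genes of the pathway were in the table. EGR1 and JUNB were the tabulated genes of 29 on an immediate early list, EGR1 and NAB2 those of 6 on the list of EGR factors with their co-repressors, ETV4 that of 24 on a list of ERK feedback and ETS genes, and CEBPB and CEBPD those of 11 on the C/EBP and ATF list. None of the 27 growth factor receptors, adaptors and kinases of the RAS cascade on a further list was tabulated. Some related genes on no list moved both ways. They were picked after their values were seen and are not a full set, so the mix of directions cannot be read as a result. Log2 fold changes were 0.52 for the receptor kinase KIT, 0.66 for the growth factor NRG1, 0.49 for the RAS exchange factor RASGRP1 and -1.10 for RASGRP3. FOS, DUSP6, SPRY4, NAB1 and MYC, which are on these lists, were therefore not analysed here, and their absence says nothing about whether they changed.

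With edgeR's quasi-likelihood test all 5 members were called lower, where 48.1% of the 187 genes were called lower and 85.0% in either direction. Groups did not overlap for 3 of the 5, JUNB, ETV4 and CEBPB, where 40.1% of all genes were lower without overlap. The genes were chosen for this difference, so nothing is read from these counts. The median log2 fold change of the members was -0.69, against -0.81 for the 94 genes that the authors' deposited table lists as lower. With median-of-ratios size factors 3 of 5 members were called, without NAB2 and JUNB, and NAB2 also missed the threshold when control replicate 3, control replicate 4 or serum-deprived replicate 2 was left out (edgeR adjusted p between 0.0548 and 0.0616).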

How the data were processed

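Single-end reads of 76 bases came from stranded poly(A) libraries, per the labels' protocols. From them the authors deposited 1 table of 187 selected genes with estimated counts per library, not scaled to depth, a log2 fold change and an FDR (an adjusted p-value). The submitters' processing notes name GRCh38 and the tools kallisto, edgeR, cutadapt and FastQC, with no versions. Columns were assigned by the condition and replicate number in their names, with 0 columns of other samples. The depth per library is unknown.

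Libraries of a group were scaled by the median ratio to their geometric mean (pseudocount 0.5). The groups were then aligned by centring on 0 the widest empty stretch of log2 ratios, -0.41 to 0.02, that had at least 20 genes on either side. Over replicates 2 to 4 alone this stretch was wider, -0.81 to 0.34. Rounded counts were tested with edgeR 4.0.16 (R 4.3.3; glmQLFit, glmQLFTest, two-sided, Benjamini-Hochberg over 187 genes, threshold 0.05), and SEs come from the quasi-likelihood F statistic. Both steps were tested on simulated data. For the scaling step every simulated gene changed at least 1.5-fold and no replicate stood apart. That simulation therefore does not cover an empty stretch as narrow as the one found over all 8 libraries. Alternatives included DESeq2 1.42.0 and limma-voom (limma 3.58.1).

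Libraries were paired by the replicate numbers in the titles. Deviations from the group means correlated over genes between libraries of the same number, by 0.216, 0.377, 0.111 and 0.122 for replicates 1 to 4. Each control library correlated most with the serum-deprived library of its own number, but these correlations are low and do not establish the pairing. No libraries of a group were duplicates (chi-square per degree of freedom 4.27 or more). Gene positions are from GENCODE 29 and promoters from RefSeq, Python 3.11.15. Members, gene lists and motifs were chosen with earlier results of these data known. The tabulated genes named are the members, genes of the lists, and the 3 nearest profiles of each member. Also named are IL7R, CD22, KIT, NRG1, RASGRP1 and RASGRP3, which are on no list.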

Additional observations from a re-analysis of the deposited data

Results flagged for a closer look

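For 5 genes and the NAB2 to EGR1 ratio in 2 groups each, 12 sets of 4 libraries were examined for a library far from the rest, and 2 had one. Chance gives about 1 in 20 such sets where they are independent, but EGR1 and NAB2 also make up the ratio. The genes were examined as scaled counts and the ratio on the log2 scale, and a flag can depend on that choice. The scaled count of EGR1 in serum-deprived replicate 1 was 225, while the other serum-deprived libraries lay between 109.7 and 126. The log2 ratio of NAB2 to EGR1 in control replicate 2 was 0.33, while the other controls lay between 1.11 and 1.26, and EGR1 was at its highest scaled count, 490.5, in that library.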

How the results depend on the processing

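The log2 fold changes of EGR1, NAB2, JUNB, ETV4 and CEBPB were negative under each of 18 alternatives, between -1.79 and -1.12 for EGR1, -0.80 and -0.46 for NAB2, -0.73 and -0.38 for JUNB, -1.05 and -0.71 for ETV4, and -0.89 and -0.54 for CEBPB. With the replicate block all 5 members were called lower, and 72 genes were called higher and 90 lower, against 69 and 90 without it, so the pairing changed no call among the members. With median-of-ratios size factors 3 members were called (edgeR adjusted p = 0.0569 for JUNB and 0.0532 for NAB2), with 80 genes higher and 75 lower. The counts were 21 higher without scaling, and 36 higher and 55 lower with a minimum mean count of 100, where fewer genes are tested. The cause of the shifts with scaling was not tested. Leaving out 1 library left 4 or 5 members called and moved the change of the NAB2 to EGR1 log2 ratio between 0.46 and 0.98. A pseudocount of 5 gave 0.66. A shift between the groups taken from replicates 2 to 4, chosen after seeing the data, kept 5 members called. The lowest counts, 15 for CEBPD in serum-deprived replicate 2 among them, carry the largest counting error.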
